A study of Rattus norvegicus with 30 samples.

Results

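The genes of the TGF-beta, BMP and activin pathways were followed in rat bone marrow mesenchymal stem cells (BMSCs) during the first 72 h of differentiation. The members were taken by gene name, as the ligands (Tgfb, Bmp, Gdf and Inh names), their receptors, Smad and Smurf genes, latent binding proteins, secreted antagonists, Bambi, Ski, Skil and Eng, and 32 of the 9999 gene names were members. BMSCs came from the femurs and tibiae of 3 female Sprague Dawley rats aged 3 weeks, and at passage 2 they were plated and given commercial differentiation media. The groups were undifferentiated cells at 0 h (CON) and, for each of chondrogenesis (CH), adipogenesis (AD) and osteogenesis (OS), cells taken 3, 12 or 72 h after induction. Each of the 10 groups had 3 samples, and each sample was pooled from 3 cultures. The labels name no genetic change, the 3 samples of 0 h served as the base of every lineage, and uninduced cells kept until the later times were not analysed here. Whether samples of a group came from different rats is not stated, so the p-values measure the spread between these samples, which may be technical.

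The pathway begins with secreted dimers of the TGF-beta family. TGF-beta and activin ligands bind type II and type I receptor kinases that phosphorylate SMAD2 and SMAD3, whereas most BMP and GDF ligands act through SMAD1, SMAD5 and SMAD9. Noggin and chordin-like proteins bind BMPs outside the cell, BAMBI is a receptor-like protein without a kinase, and SMURF and SKI proteins limit the signal inside the cell. TGF-beta is widely used to drive chondrogenesis of mesenchymal cells in culture, BMPs are known for inducing bone and cartilage, and TGF-beta is known to restrain the formation of fat cells.

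Levels are in CPM, read counts scaled to the same total in every sample, and differences are log2 fold changes on log2(CPM + 1), a scale that understates the change of low genes. Group means are given ± SD (n = 3) and log2 fold changes ± SE. A gene was called where limma gave a Benjamini-Hochberg adjusted p under 0.05 and the log2 fold change was 1 or more in size. CPM holds no gene length, so levels were compared between samples and not between genes. The samples held 3899609 to 9046719 reads, and the chondrogenic samples of 72 h were the shallowest (3899609 to 4523111). A signal of 3 reads, or 0.332 to 0.769 CPM, was taken as the floor, which covers counting error only. Of 7 stromal markers listed, Itgb1 (3311 to 15548 CPM), Thy1 (387 to 8280 CPM) and Cd44 (258 to 2014 CPM) were detected in every sample, whereas Pdgfrb (at most 1.77 CPM), Alcam (0.753 CPM), Vcam1 (0.368 CPM) and Eng were at or near 0. The 4 listed of 9 haematopoietic markers summed to at most 4.08 CPM. Eng, the co-receptor CD105 and a defining marker of these cells, reached at most 0.663 CPM. Of 9 genes used by every cell, a list chosen after their values were seen, 5 never reached 10 CPM, among them Actb (0 to 5.39 CPM) and Vim (0 to 1.58 CPM), whereas Rplp0 (2075 to 7542 CPM), B2m (369.8 to 1040.4 CPM), Tubb5 (84.2 to 579 CPM) and Rps18 (12.0 to 52.6 CPM) were detected in every sample. As some such genes were near 0, a member listed at or near 0 cannot be taken as absent from the cells. The share of reads on listed genes differed between groups, such as 53.7 to 54.2% at 0 h and 68.7 to 71.4% at 12 h of osteogenesis. CPM was scaled to totals that include the reads not on listed genes. At 72 h of adipogenesis, replicates 1 and 2 had 47.9 and 49.0% of reads on listed genes. Replicate 3 of 72 h of adipogenesis stood apart, with 38.9% of its reads on listed genes, the lowest share of the 30 samples. Without it, 2 of the 24 called member changes that involve its group lost their call and 2 others were called, all given below. Of the 24, 2 fold changes moved by over 1.5 times, both of Nog and by 1.82 times each, and are given with and without it. Replicate 1 of 12 h of adipogenesis also differed from its group, with 64.6% of its reads on listed genes beside 54.2 and 54.3%, and without it 1 of 23 calls was lost and 6 were gained, given with their genes. In such bulk RNA, fewer cells of a type and less RNA per cell cannot be told apart.

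Of the 32 members, 13 had at least 1 CPM in at least 3 samples and were tested. These were 6 of 14 ligands (Tgfb1, Inhbb, Inhbe, Gdf6, Gdf15 and Bmp3), 2 of 7 receptors (Tgfbr3 and Acvr2b), the pseudoreceptor Bambi, 3 of 4 secreted antagonists (Nog, Chrdl2 and Fstl1), and Tgfbi, a matrix protein named for its induction by TGF-beta. The other 19 members had at most 19 reads in any sample, and 9 of them never exceeded 3 reads. Both latent binding proteins and all 3 intracellular members were among these 19.

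Chondrogenesis was the lineage in which Tgfb1 and Tgfbi were called higher than at 0 h at 3 h and 72 h, with Tgfbr3, the type III TGF-beta receptor, called lower at every time. The 3 h call of Tgfb1 was lost with median-ratio scaling and with edgeR. Adipogenesis ended at 72 h with the opposite directions, Tgfb1 and Tgfbi lower and Tgfbr3 higher. Osteogenesis shared the fall of Tgfbr3 and Inhbb at 3 h with chondrogenesis, and by 72 h Tgfbr3 was called higher than at 0 h. The receptor Acvr2b was below its 0 h values in every sample of every lineage.

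At 3 h of osteogenesis, 6 members were called, Fstl1, Gdf6 and Inhbe higher and Acvr2b, Inhbb and Tgfbr3 lower, and 18.4% of all genes tested were called in this comparison. At 12 h, 6 were called, Inhbe higher and Acvr2b, Bambi, Bmp3, Inhbb and Nog lower (21.8% of all genes). At 72 h, 5 were called, Bmp3, Gdf15 and Tgfbr3 higher and Chrdl2 and Nog lower (12.5% of all genes). In adipogenesis, 5 members were called at 3 h, with Bambi, Chrdl2 and Gdf15 higher and Acvr2b and Nog lower (18.8% of all genes). Tgfbr3 was called higher and Bmp3 and Nog lower at 12 h of adipogenesis, 3 members in all (13.7% of all genes), and 5 were called with edgeR on the recovered reads (16.7% of all genes) or with median-ratio scaling (13.4%), which added Acvr2b and Tgfb1. At 72 h of adipogenesis, 7 were called, Gdf15 and Tgfbr3 higher and Acvr2b, Bmp3, Chrdl2, Tgfb1 and Tgfbi lower (15.3% of all genes). In chondrogenesis, 8 members were called at 3 h, with Fstl1, Gdf6, Nog, Tgfb1 and Tgfbi higher and Acvr2b, Inhbb and Tgfbr3 lower (18.0% of all genes). At 12 h of chondrogenesis, 6 were called, Fstl1, Gdf6 and Tgfbi higher and Acvr2b, Inhbb and Tgfbr3 lower (14.4% of all genes). By 72 h, 9 were called, Bambi, Gdf6, Inhbe, Tgfb1 and Tgfbi higher and Acvr2b, Bmp3, Chrdl2 and Tgfbr3 lower (18.0% of all genes). The members tested had passed a filter on low values that a rise in 1 group can pass, so these shares are given as descriptions. Relative to CPM, median-ratio scaling shifted the log2 fold changes of all genes by a median of between -0.26 and 0.17 over the 9 comparisons with 0 h. Calls of members that this scaling ends are named with their genes. The split of all calls by direction turned on the scaling. Of the genes called against 0 h, 40.5 to 72.9% were higher on CPM over the 9 comparisons, 41.8 to 63.0% with median-ratio scaling and 39.0 to 58.4% with edgeR, and the share moved by over 10 percentage points in 7 of the 9. At 12 h of osteogenesis it was 67.2% on CPM, 46.6% with median-ratio scaling and 39.0% with edgeR.

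**Figure D1:**
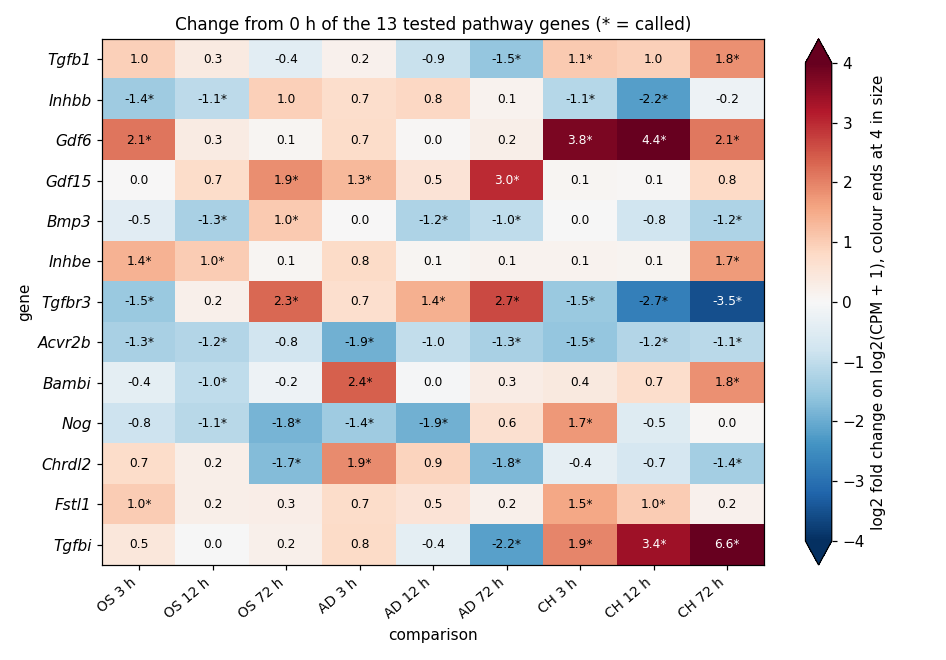
Heat map of log2 fold changes on log2(CPM + 1) against 0 h, with the 13 tested members as rows and the 9 groups as columns, where OS, AD and CH are osteogenesis, adipogenesis and chondrogenesis, red is higher, blue is lower and a star marks a called change. Tgfbi in chondrogenesis (6.62 at 72 h) and Tgfbr3 in chondrogenesis (-3.53) and adipogenesis (2.65) stand out, and Acvr2b is blue in all 9 columns.

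The 250 bases before the RefSeq start of the 4 members with the most reads are shown, because Tgfb1 and Tgfbi moved one way in chondrogenesis and Tgfbr3 and Inhbb the other at 3 and 12 h. RefSeq (GRCr8) gave such a window for 26 of the 32 members and 11 of the 13 tested. Coordinates are on GRCr8, sequences run 5′ to 3′ on the gene's own strand, and capitals mark GGCGCC, a GC-rich motif that SMAD proteins are known to bind and that reads the same on both strands.
Tgfb1 (chr1:90324062-90324311, plus strand): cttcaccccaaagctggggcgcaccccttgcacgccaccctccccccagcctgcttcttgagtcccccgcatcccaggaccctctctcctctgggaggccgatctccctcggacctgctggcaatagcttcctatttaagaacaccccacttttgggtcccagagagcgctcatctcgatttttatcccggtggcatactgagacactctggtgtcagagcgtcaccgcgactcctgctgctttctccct
Tgfbi (chr17:7990114-7990363, minus strand): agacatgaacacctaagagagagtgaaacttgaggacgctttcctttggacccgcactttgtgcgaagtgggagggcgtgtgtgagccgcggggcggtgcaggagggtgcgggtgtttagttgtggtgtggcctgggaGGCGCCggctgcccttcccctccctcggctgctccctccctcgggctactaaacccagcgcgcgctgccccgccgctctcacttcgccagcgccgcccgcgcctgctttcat
Tgfbr3 (chr14:2634044-2634293, plus strand): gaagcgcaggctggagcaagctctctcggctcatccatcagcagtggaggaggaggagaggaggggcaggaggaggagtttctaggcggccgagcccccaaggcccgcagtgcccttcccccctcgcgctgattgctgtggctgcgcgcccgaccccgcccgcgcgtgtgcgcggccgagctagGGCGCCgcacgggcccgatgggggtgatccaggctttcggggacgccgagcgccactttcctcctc
Inhbb (chr13:33089374-33089623, minus strand): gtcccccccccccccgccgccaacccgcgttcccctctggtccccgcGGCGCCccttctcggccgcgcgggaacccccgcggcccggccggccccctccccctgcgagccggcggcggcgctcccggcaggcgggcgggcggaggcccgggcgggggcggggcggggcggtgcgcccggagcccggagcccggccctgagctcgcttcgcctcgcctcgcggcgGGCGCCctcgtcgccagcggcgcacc
GGCGCC occurred once in the windows of Tgfbi and Tgfbr3 (1 each), at 2 places in that of Inhbb, and not in that of Tgfb1. Of all 33469 RefSeq windows of this length, 8.69% held it, and 5 of the 11 tested members with a window did. These were Bambi, Inhbb, Nog, Tgfbi and Tgfbr3, whose windows were 65.6 to 86.8% G or C. The share of all windows was not matched for G and C content. The short SMAD motif CAGAC, or GTCTG on the other strand, was in none of the 4 windows shown and in 3 of the 11 of tested members (Gdf15, Inhbe and Nog), while 42.9% of all windows held it. The palindromic motif GTCTAGAC, which reads the same on both strands and overlaps neither of the other motifs, was in no window of a tested member and in 0.173% of all windows. These matches describe the letters of the windows and not binding.

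Among the ligands, Tgfb1 encodes TGF-beta 1. At 0 h, Tgfb1 was at 180.2, 185 and 182 CPM. Osteogenic Tgfb1 values were 337, 324 and 407 CPM at 3 h, 231, 248 and 217 at 12 h, then 135, 143 and 128 at 72 h. They lay above the 0 h samples at 3 and 12 h and below them at 72 h, and no osteogenic time was called. Adipogenic Tgfb1 values were 203, 212 and 195 CPM at 3 h, 129.7, 79.4 and 92.3 at 12 h, then 68.0, 70.05 and 50.1 at 72 h. Chondrogenic Tgfb1 values were 399, 378 and 368 CPM at 3 h, 336, 411 and 329 at 12 h, then 747, 617 and 605 at 72 h. The chondrogenic samples were above all 0 h samples at each time, whereas the adipogenic samples were below them at 12 and 72 h. Tgfb1 rose at 72 h of chondrogenesis (log2 fold change 1.84 ± 0.14, adjusted p = 3.69e-12) and fell at 72 h of adipogenesis (-1.54 ± 0.14, adjusted p = 2.22e-10, or -1.39 without replicate 3). The rise at 3 h of chondrogenesis (1.06 ± 0.14, adjusted p = 2.42e-07) was no longer called with median-ratio scaling (0.72) or edgeR (0.70). Changes of 0.95 at 3 h of osteogenesis, 0.97 at 12 h of chondrogenesis and -0.88 at 12 h of adipogenesis were just under a log2 fold change of 1. Without 1 library they passed it, at 1.02 without replicate 2 of osteogenesis, 1.01 or 1.02 without replicate 1 or 3 of chondrogenesis, and -1.08 without replicate 1 of adipogenesis. Between lineages at 72 h, Tgfb1 was higher in chondrogenesis than in adipogenesis by 3.38 ± 0.14, adjusted p = 1.60e-18, and lower in osteogenesis than in chondrogenesis (-2.26 ± 0.14, adjusted p = 3.29e-14). At 12 h chondrogenesis exceeded adipogenesis (1.85 ± 0.14, adjusted p = 6.10e-12), as did osteogenesis (1.23 ± 0.14, adjusted p = 3.25e-08). The excess of osteogenesis over adipogenesis at 72 h (1.11 ± 0.14, adjusted p = 2.20e-07) was not called without adipogenic replicate 3 (0.96), with median-ratio scaling (0.77) or with edgeR (0.86).

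Inhbb encodes the beta B subunit shared by activin B and inhibin B. At 0 h, Inhbb was at 528, 569.7 and 506 CPM. Osteogenic Inhbb values were 194, 201 and 199 CPM at 3 h, 248, 265 and 257 at 12 h, then 998, 1027 and 1078 at 72 h. The osteogenic samples were below 0 h at 3 and 12 h and above it at 72 h. Adipogenic Inhbb values were 860.2, 892 and 876 CPM at 3 h, 859, 990.3 and 1001 at 12 h, then 779, 722 and 362 at 72 h. Chondrogenic Inhbb values were 248, 246 and 229.6 CPM at 3 h, 107, 129 and 108 at 12 h, then 466, 456 and 458 at 72 h. The adipogenic samples were above 0 h at 3 and 12 h, and at 72 h replicates 1 and 2 were above and replicate 3 below, while every chondrogenic sample was below 0 h. Inhbb fell at 3 h of osteogenesis (log2 fold change -1.42 ± 0.16, adjusted p = 8.30e-09) and of chondrogenesis (-1.14 ± 0.16, adjusted p = 4.67e-07). It remained lower at 12 h of osteogenesis (-1.05 ± 0.16, adjusted p = 1.42e-06) and reached its lowest mean at 12 h of chondrogenesis (-2.22 ± 0.16, adjusted p = 1.44e-12). From 12 to 72 h it rose in osteogenesis (2.01 ± 0.16, adjusted p = 4.53e-12) and in chondrogenesis (2.002 ± 0.16, adjusted p = 1.52e-11), and against 0 h the 72 h values were 0.95 and -0.21, neither called. The further fall from 3 to 12 h of chondrogenesis (-1.07 ± 0.16, adjusted p = 4.25e-06) was not called with median-ratio scaling (-0.97) or edgeR (-0.98). At 3 h, Inhbb was lower in osteogenesis (-2.14 ± 0.16, adjusted p = 7.50e-12) and in chondrogenesis (-1.86 ± 0.16, adjusted p = 1.06e-10) than in adipogenesis. The gap to adipogenesis at 12 h was -1.88 ± 0.16, adjusted p = 7.09e-11 for osteogenesis and -3.04 ± 0.16, adjusted p = 8.70e-16 for chondrogenesis. Osteogenesis was above chondrogenesis at 12 h (1.16 ± 0.16, adjusted p = 4.47e-07) and 72 h (1.17 ± 0.16, adjusted p = 3.54e-07). Against adipogenesis at 72 h the osteogenic difference was 0.81 and not called, and it was 1.01 and called without adipogenic replicate 1 but 0.46 and not called without adipogenic replicate 3.

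**Figure D2:**
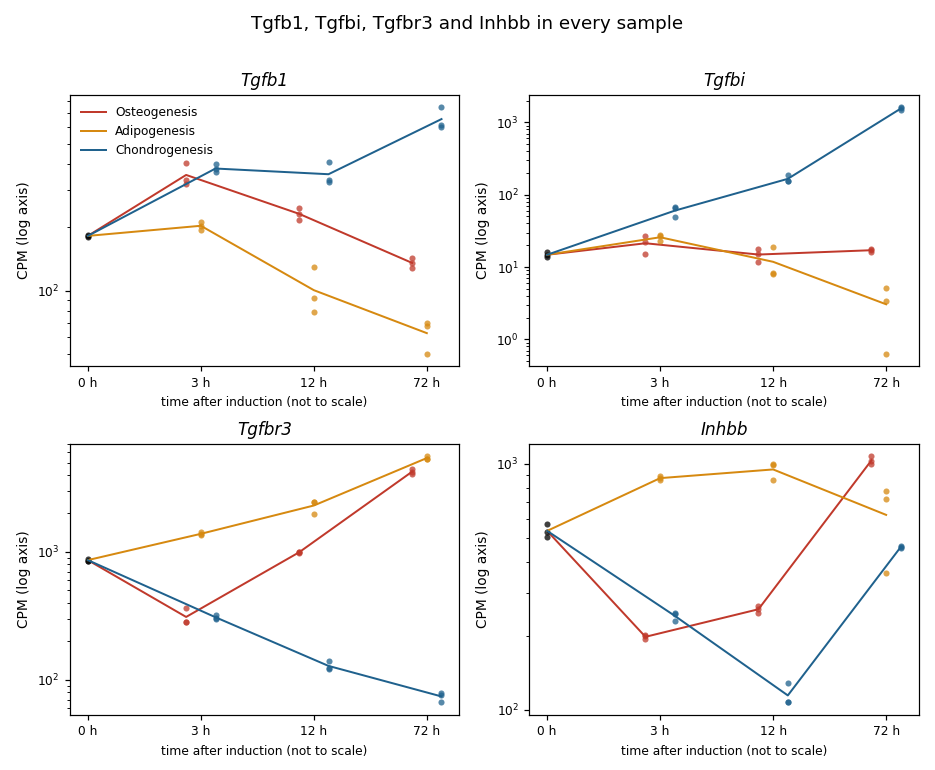
Levels of Tgfb1, Tgfbi, Tgfbr3 and Inhbb in every sample, in CPM on a log axis against time after induction (steps not to scale), with 1 point per sample, black points for the shared 0 h samples and lines through the group means (red osteogenesis, orange adipogenesis, blue chondrogenesis). Tgfbi climbs to 1553 CPM in chondrogenesis, and Tgfbr3 climbs to 5426 CPM in adipogenesis and falls to 74.0 CPM in chondrogenesis.

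Gdf6 encodes a BMP-like ligand known for its part in joint and skeletal patterning. At 0 h, Gdf6 was at 0.716, 0.418 and 0 CPM, 8 reads in all. Osteogenic Gdf6 values were 2.51, 5.69 and 8.02 CPM at 3 h, 0.904, 0.897 and 0.305 at 12 h, then 0.597, 0.780 and 0 at 72 h. They were above 0 h at 3 h and overlapped it from 12 h on. Adipogenic Gdf6 values were 1.22, 1.42 and 1.04 CPM at 3 h, 0, 0.921 and 0.370 at 12 h, then 0.356, 1.60 and 0.158 at 72 h. Chondrogenic Gdf6 values were 14.8, 21.0 and 16.2 CPM at 3 h, 28.0, 28.8 and 23.4 at 12 h, then 4.62, 5.53 and 4.45 at 72 h. Every chondrogenic sample was above every sample of 0 h, of the later osteogenic times and of adipogenesis. Gdf6 rose at 3 h (log2 fold change 3.76 ± 0.33, adjusted p = 8.50e-11), 12 h (4.36 ± 0.33, adjusted p = 6.20e-12) and 72 h (2.12 ± 0.33, adjusted p = 4.05e-06) of chondrogenesis and at 3 h of osteogenesis (2.15 ± 0.33, adjusted p = 2.80e-06). As ratios of summed reads per total, chondrogenesis was at 44.9 (95% interval 22.5 to 105) times the 0 h level at 3 h and at 69.6 (95% interval 35.0 to 162) times at 12 h, intervals of counting error only. The ratio was 12.7 (95% interval 6.04 to 30.6) at 72 h of chondrogenesis and 14.3 (95% interval 7.01 to 34.0) at 3 h of osteogenesis. Gdf6 fell from 12 to 72 h of chondrogenesis (-2.24 ± 0.33, adjusted p = 2.18e-06) and from 3 to 12 h of osteogenesis (-1.83 ± 0.33, adjusted p = 9.51e-05). Chondrogenesis was above adipogenesis at 3, 12 and 72 h, by 3.03, 4.32 and 1.87 on the log2 scale, all called. Osteogenesis was below chondrogenesis by -1.61, -4.04 and -2.04 at these times, also called. At 3 h, osteogenesis was above adipogenesis (1.43 ± 0.33, adjusted p = 0.00210), but with a pseudocount of 0.1 neither this difference (1.92) nor that from chondrogenesis at 3 h (-1.80) passed the test.

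Gdf15 encodes a distant family member, a stress-induced cytokine that signals through the receptor GFRAL. At 0 h, Gdf15 was at 0.286, 0.279 and 1.21 CPM. Osteogenic Gdf15 values were 0.157, 0.474 and 1.24 CPM at 3 h, 1.51, 2.09 and 1.22 at 12 h, then 5.07, 5.15 and 3.62 at 72 h. Adipogenic Gdf15 values were 3.87, 2.36 and 2.23 CPM at 3 h, 0.731, 2.76 and 0.740 at 12 h, then 9.79, 10.8 and 13.3 at 72 h. All samples of 72 h were above 0 h in both lineages. Chondrogenic Gdf15 values were 0.749, 1.03 and 0.246 CPM at 3 h, 0.722, 0.623 and 0.475 at 12 h, then 2.56, 1.33 and 1.33 at 72 h. They overlapped 0 h at 3 and 12 h. Gdf15 rose at 72 h of adipogenesis (log2 fold change 2.99 ± 0.31, adjusted p = 2.94e-09, or 2.88 without replicate 3), at 72 h of osteogenesis (1.86 ± 0.31, adjusted p = 1.72e-05) and at 3 h of adipogenesis (1.29 ± 0.31, adjusted p = 9.78e-04). The chondrogenic change at 72 h was 0.80 and not called, but 1.07 and called without 0 h replicate 3, whose 1.21 CPM was the highest at 0 h. The same was true of 12 h of osteogenesis (0.75, or 1.01 without that sample). From 12 to 72 h, Gdf15 rose in adipogenesis (2.44 ± 0.31, adjusted p = 1.15e-07) and in osteogenesis (1.11 ± 0.31, adjusted p = 0.00350, or 0.999 without 12 h replicate 3). At 72 h, chondrogenesis was below adipogenesis (-2.19 ± 0.31, adjusted p = 5.40e-07). Osteogenesis lay between them, lower than adipogenesis (-1.13 ± 0.31, adjusted p = 0.00365) and higher than chondrogenesis (1.05 ± 0.31, adjusted p = 0.00631), but with a pseudocount of 0.1 neither was called. The excess over chondrogenesis was also lost with median-ratio scaling (0.98) and without osteogenic replicate 1 or 2 or chondrogenic replicate 2 or 3, and the difference from adipogenesis without osteogenic replicate 3. At 3 h adipogenesis was above osteogenesis (-1.26 for osteogenesis less adipogenesis) and chondrogenesis (-1.19, or -0.99 without chondrogenic replicate 3). RefSeq places Lrrc25 over part of Gdf15, and whether the counting used strand is not given in the sources used here.

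Bmp3 encodes a ligand known to oppose osteogenic BMPs. At 0 h, Bmp3 was at 1.15, 1.95 and 1.97 CPM. Osteogenic Bmp3 values were 1.57, 0.316 and 1.11 CPM at 3 h, 0, 0.299 and 0 at 12 h, then 3.88, 5.62 and 4.07 at 72 h. The 72 h osteogenic samples were the highest of all groups, and those of 12 h were at or near 0. Adipogenic Bmp3 values were 1.33, 2.20 and 1.64 CPM at 3 h, 0.439, 0 and 0 at 12 h, then 0.178, 0.887 and 0 at 72 h. Chondrogenic Bmp3 values were 1.65, 2.06 and 1.23 CPM at 3 h, 0.144, 0.779 and 0.792 at 12 h, then 0, 0.442 and 0 at 72 h. Both lineages overlapped 0 h at 3 h and lay below it at 12 and 72 h. Bmp3 fell at 12 h of osteogenesis (log2 fold change -1.29 ± 0.27, adjusted p = 2.31e-04) and of adipogenesis (-1.24 ± 0.27, adjusted p = 5.48e-04), where the group sums were 2 and 3 reads. As ratios of reads to 0 h these were 0.0596 (95% interval 0.00695 to 0.232) and 0.101 (95% interval 0.0198 to 0.319). It was also lower at 72 h of chondrogenesis (-1.24 ± 0.27, adjusted p = 4.91e-04) and of adipogenesis (-1.03 ± 0.27, adjusted p = 0.00334), but the adipogenic call was lost without replicate 1 or 3 of its group or 0 h replicate 2 or 3 (replicate 3 of adipogenesis, -0.84). The osteogenic change against 0 h at 72 h (1.04 ± 0.27, adjusted p = 0.00372) was not called with a pseudocount of 0.1 (1.39), median-ratio scaling (0.95) or edgeR (1.26), nor without osteogenic replicate 2 (0.90) or 0 h replicate 1 (0.89). Within osteogenesis Bmp3 rose from 12 to 72 h (2.33 ± 0.27, adjusted p = 2.22e-08). Osteogenesis exceeded chondrogenesis (2.28 ± 0.27, adjusted p = 4.68e-08) and adipogenesis (2.07 ± 0.27, adjusted p = 5.32e-07) at 72 h. Adipogenic Bmp3 fell from 3 to 12 h (-1.26 ± 0.27, adjusted p = 5.62e-04).

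Inhbe encodes the beta E subunit, best known in the liver. At 0 h, Inhbe was listed at 0 in all 3 samples. Osteogenic Inhbe values were 0.627, 2.69 and 2.07 CPM at 3 h, 1.36, 1.20 and 0.609 at 12 h, then 0, 0 and 0.151 at 72 h. Adipogenic Inhbe values were 0.221, 0.787 and 1.19 CPM at 3 h, 0.146, 0 and 0 at 12 h, then 0, 0.355 and 0 at 72 h. The adipogenic samples of 12 and 72 h were mostly listed at 0. Chondrogenic Inhbe values were 0.2997, 0 and 0 CPM at 3 h, 0.289, 0 and 0 at 12 h, then 2.05, 3.32 and 1.56 at 72 h. Reads were found in every sample of 3 and 12 h of osteogenesis, of 3 h of adipogenesis and of 72 h of chondrogenesis. Against a floor of 3 reads per library, Inhbe was at least 4.14-fold higher than at 0 h at 3 h of osteogenesis (adjusted p = 3.92e-05). It was at least 5.32-fold higher at 72 h of chondrogenesis (adjusted p = 2.74e-06). At 12 h of osteogenesis it was at least 2.43-fold higher (adjusted p = 0.00143), a call lost with median-ratio scaling and without osteogenic replicate 1 or 2. Osteogenesis was above chondrogenesis at 3 h (log2 fold change 1.28 ± 0.25, adjusted p = 4.44e-04) and below it at 72 h (-1.62 ± 0.25, adjusted p = 5.28e-06). Chondrogenesis was above adipogenesis at 72 h (1.55 ± 0.25, adjusted p = 7.75e-06). It rose from 12 to 72 h of chondrogenesis (1.57 ± 0.25, adjusted p = 1.13e-05). Osteogenesis less adipogenesis at 12 h was 0.95, and it was called with a pseudocount of 0.1, with edgeR and without adipogenic replicate 1 (1.02). The rise at 3 h of adipogenesis against 0 h, not called in the main fit, was called with a pseudocount of 0.1 and with edgeR. So were the excess of osteogenesis over chondrogenesis at 12 h and the falls from 12 to 72 h of osteogenesis and 3 to 12 h of adipogenesis. No sample held more than 17 reads.

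The other 8 ligands, Bmp2, Bmp5, Bmp8b, Bmp15, Gdf7, Gdf9, Gdf10 and Inha, were not tested. Bmp2, a ligand used to induce bone, was at 0.430, 0.975 and 0.152 CPM at 0 h and 1.34, 0.624 and 0.452 CPM at 72 h of osteogenesis. Replicate 3 of 72 h of chondrogenesis had 0.889 CPM and replicate 1 had 0.256 CPM, and 1 sample each of 3 h of osteogenesis, 12 h of adipogenesis, 72 h of adipogenesis and 3 h of chondrogenesis had 0.158, 0.184, 0.317 and 0.150 CPM, or 1, 1, 2 and 1 reads. The other samples were listed at 0. Bmp8b had its highest value, 2.84 CPM or 19 reads, in replicate 2 of 12 h of osteogenesis, while replicates 1 and 3 of that group had 3 and 5 reads. With no filter on low values Bmp8b was called higher at 12 h of osteogenesis. RefSeq places Oxct2b and Ppie over parts of Bmp8b.

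Of the receptors, Tgfbr3 encodes betaglycan, the type III co-receptor that presents TGF-beta 2 and binds inhibins. At 0 h, Tgfbr3 was at 853, 852 and 885 CPM. Osteogenic Tgfbr3 values were 282, 282 and 365 CPM at 3 h, 999.9, 980.4 and 1001 at 12 h, then 4240.2, 4081 and 4419.9 at 72 h. The osteogenic samples fell below 0 h at 3 h and were far above it at 72 h. Adipogenic Tgfbr3 values were 1351, 1374 and 1433 CPM at 3 h, 1993, 2479 and 2453 at 12 h, then 5295, 5633 and 5349 at 72 h. Chondrogenic Tgfbr3 values were 304, 323 and 297 CPM at 3 h, 123, 141 and 120.4 at 12 h, then 76.4, 66.5 and 79.2 at 72 h. The samples of these lineages lay on opposite sides of 0 h at every time. Osteogenic Tgfbr3 fell at 3 h (log2 fold change -1.48 ± 0.10, adjusted p = 4.36e-13), was at 0.20 at 12 h (not called), and rose at 72 h (2.30 ± 0.10, adjusted p = 2.03e-17). In adipogenesis it was at 0.68 at 3 h (not called), and rose at 12 h (1.41 ± 0.10, adjusted p = 1.91e-12) and 72 h (2.65 ± 0.10, adjusted p = 3.91e-19). In chondrogenesis it fell at 3 h (-1.48 ± 0.10, adjusted p = 4.08e-13), 12 h (-2.74 ± 0.10, adjusted p = 3.31e-19) and 72 h (-3.53 ± 0.10, adjusted p = 7.03e-22). At 3 h osteogenesis and chondrogenesis did not differ beyond the spread (0.00 ± 0.10, not called), and each was below adipogenesis by -2.17 and -2.17, both called. By 12 h, osteogenesis stood above chondrogenesis (2.95 ± 0.10, adjusted p = 7.49e-20) and below adipogenesis (-1.21 ± 0.10, adjusted p = 8.20e-11), and chondrogenesis was below adipogenesis by -4.15. At 72 h, osteogenesis was above chondrogenesis (5.83 ± 0.10, adjusted p = 8.87e-28), chondrogenesis was below adipogenesis (-6.18 ± 0.10, adjusted p = 1.64e-28), and osteogenesis was -0.35 against adipogenesis, not called. Within osteogenesis both steps rose (1.69 from 3 to 12 h and 2.09 from 12 to 72 h). RefSeq places a non-coding RNA over part of Tgfbr3.

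Acvr2b encodes a type II receptor for activins and related ligands. At 0 h, Acvr2b was at 7.45, 8.08 and 6.82 CPM. Osteogenic Acvr2b values were 2.35, 1.26 and 4.29 CPM at 3 h, 3.62, 2.39 and 2.29 at 12 h, then 5.07, 2.50 and 4.82 at 72 h. Adipogenic Acvr2b values were 0.884, 0.787 and 2.38 CPM at 3 h, 1.90, 4.60 and 3.70 at 12 h, then 2.14, 1.24 and 4.91 at 72 h. Every later sample was below the 3 samples of 0 h. Chondrogenic Acvr2b values were 2.70, 1.17 and 2.09 CPM at 3 h, 2.74, 2.34 and 3.17 at 12 h, then 2.56, 3.10 and 3.34 at 72 h. Acvr2b was called lower in 7 of the 9 comparisons with 0 h. Its log2 fold changes were -1.30, -1.18 and -0.76 (not called) at the successive times of osteogenesis, -1.91, -0.99 (not called) and -1.28 in adipogenesis, and -1.53, -1.18 and -1.08 in chondrogenesis, each ± 0.34. These comparisons share the 0 h samples. At 12 h of adipogenesis it was called with median-ratio scaling (-1.20) and edgeR (-1.40), and at 72 h of adipogenesis the call was lost without replicate 2 (-0.97). No difference between lineages was called, with log2 fold changes between lineages of -0.19 to 0.61, and without adipogenic replicate 3 osteogenesis less adipogenesis at 72 h was 0.91 and not called. The other 5 receptors, Acvr1c, Acvrl1, Bmpr1b, Eng and Tgfbr2, were at most at 1.28, 1.06, 0.294, 0.663 and 0.152 CPM.

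**Figure D3:**
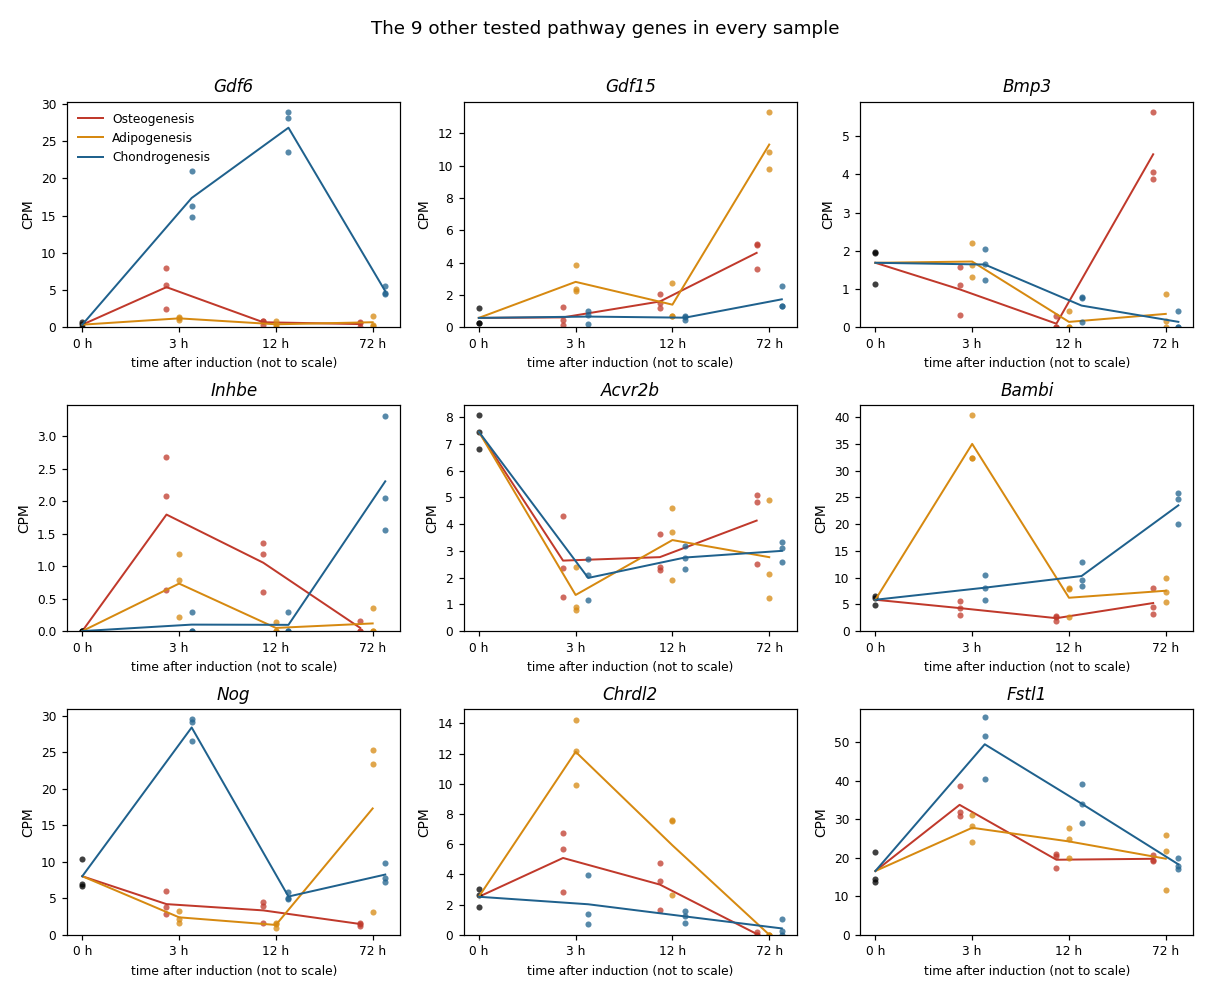
Levels of the 9 other tested members in every sample, in CPM on linear axes that begin at 0, against time after induction (steps not to scale), with 1 point per sample, black points for 0 h and lines through the group means (red osteogenesis, orange adipogenesis, blue chondrogenesis). Gdf6 is highest at 12 h of chondrogenesis (26.8 CPM) and Bambi at 3 h of adipogenesis (35.0 CPM), and the 3 adipogenic points of Nog at 72 h split into 25.3, 23.4 and 3.17 CPM.

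Bambi encodes the pseudoreceptor. At 0 h, Bambi was at 6.59, 6.13 and 4.85 CPM. Osteogenic Bambi values were 4.23, 3.002 and 5.67 CPM at 3 h, 2.56, 1.94 and 2.74 at 12 h, then 4.48, 3.12 and 8.14 at 72 h. Only at 12 h did the osteogenic samples lie wholly below 0 h. Adipogenic Bambi values were 32.4, 32.3 and 40.3 CPM at 3 h, 2.63, 7.92 and 8.14 at 12 h, then 9.97, 7.27 and 5.39 at 72 h. Chondrogenic Bambi values were 10.5, 5.73 and 8.11 CPM at 3 h, 9.53, 12.9 and 8.40 at 12 h, then 24.6, 25.9 and 20.01 at 72 h. The 3 h adipogenic samples were above all other samples. Bambi rose at 3 h of adipogenesis (log2 fold change 2.39 ± 0.31, adjusted p = 1.96e-07) and fell again from 3 to 12 h (-2.42 ± 0.31, adjusted p = 3.21e-07). It also rose at 72 h of chondrogenesis (1.84 ± 0.31, adjusted p = 1.48e-05), with a step of 1.13 from 12 h. The fall at 12 h of osteogenesis (-1.004 ± 0.31, adjusted p = 0.00857) was not called without osteogenic replicate 2 or 0 h replicate 1 or 2, with values from -0.97 to -0.90. At 3 h, osteogenesis (-2.79) and chondrogenesis (-2.01) were below adipogenesis. Chondrogenesis exceeded osteogenesis at 12 h (-1.71 for osteogenesis less chondrogenesis) and 72 h (-2.04), and adipogenesis at 72 h (1.55), all 5 called. The osteogenic difference from adipogenesis at 12 h, -0.97, was called with median-ratio scaling (-1.02) and edgeR (-1.49), and without adipogenic replicate 1 (-1.41).

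Nog encodes noggin, a secreted BMP antagonist. At 0 h, Nog was at 6.73, 6.96 and 10.3 CPM. Osteogenic Nog values were 2.82, 3.79 and 5.95 CPM at 3 h, 3.92, 1.64 and 4.42 at 12 h, then 1.49, 1.25 and 1.66 at 72 h. All osteogenic samples lay below 0 h. Adipogenic Nog values were 1.66, 2.20 and 3.27 CPM at 3 h, 1.61, 1.47 and 0.925 at 12 h, then 25.3, 23.4 and 3.17 at 72 h. Chondrogenic Nog values were 29.1, 29.5 and 26.6 CPM at 3 h, 5.78, 4.83 and 5.07 at 12 h, then 7.18, 7.74 and 9.78 at 72 h. The 3 h chondrogenic samples were the highest, and the adipogenic samples of 72 h were split, with replicate 3 far below replicates 1 and 2. Nog rose at 3 h of chondrogenesis (log2 fold change 1.73 ± 0.41, adjusted p = 0.00105) and fell from 3 to 12 h (-2.24 ± 0.41, adjusted p = 1.30e-04). It was lower at 3 h (-1.42 ± 0.41, adjusted p = 0.00611) and 12 h (-1.94 ± 0.41, adjusted p = 3.96e-04) of adipogenesis and at 72 h of osteogenesis (-1.85 ± 0.41, adjusted p = 8.28e-04). The change at 3 h of osteogenesis, -0.82, was not called, but it was with median-ratio scaling (-1.03) and edgeR (-1.17). The fall at 12 h of osteogenesis (-1.10 ± 0.41, adjusted p = 0.0301) was not called with no filter on low values, without osteogenic replicate 2 (-0.78) or without 0 h replicate 3 (-0.93). Adipogenesis at 72 h was at 0.65 against 0 h and not called, but at 1.51 and called without replicate 3, and it was also called with edgeR (1.18). The adipogenic step from 12 to 72 h was 2.58 ± 0.41, adjusted p = 6.25e-06, or 3.45 without that replicate. Chondrogenesis against adipogenesis was 3.15 at 3 h and 1.42 at 12 h, both called. At 72 h it was -0.60, called only without replicate 3 (-1.47) or with edgeR (-1.20) among the settings tried. Osteogenesis was below chondrogenesis at 3 h (-2.54) and 72 h (-1.90) and below adipogenesis at 72 h (-2.50, or -3.36 without replicate 3), all called. RefSeq places Nogl1 over Nog.

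Chrdl2 encodes chordin-like 2, a secreted BMP binder. At 0 h, Chrdl2 was at 1.86, 2.65 and 3.03 CPM. Osteogenic Chrdl2 values were 6.74, 2.84 and 5.67 CPM at 3 h, 1.66, 3.59 and 4.72 at 12 h, then 0, 0 and 0.151 at 72 h. Adipogenic Chrdl2 values were 14.3, 9.91 and 12.2 CPM at 3 h, 2.63, 7.55 and 7.59 at 12 h, then 0, 0 and 0 at 72 h. The 3 h adipogenic samples were above 0 h, and at 72 h the adipogenic samples were all listed at 0. Chondrogenic Chrdl2 values were 1.35, 3.96 and 0.738 CPM at 3 h, 1.59, 0.779 and 1.27 at 12 h, then 1.03, 0.221 and 0 at 72 h. Chrdl2 rose at 3 h of adipogenesis (log2 fold change 1.90 ± 0.36, adjusted p = 7.99e-05). At 12 h of adipogenesis it was at 0.89 and not called, but at 1.3004 and called without replicate 1, whose 2.63 CPM was the lowest of its group, and osteogenesis less adipogenesis at 12 h went from -0.64 to -1.06 and was then called. The 3 h osteogenic change, 0.75, was called without replicate 2 (1.05). At 72 h of adipogenesis it was at least 4.89-fold lower than at 0 h, against a floor of 3 reads per library (adjusted p = 2.00e-04), and at least 11.5-fold lower than at 12 h (adjusted p = 4.48e-07). It was lower at 72 h of osteogenesis (-1.73 ± 0.36, adjusted p = 4.12e-04), where the group held 1 read, a read ratio to 0 h of 0.0202 (95% interval 0.000502 to 0.118). It was also lower at 72 h of chondrogenesis (-1.36 ± 0.36, adjusted p = 0.00341). Osteogenic Chrdl2 fell from 12 to 72 h (-1.97 ± 0.36, adjusted p = 4.02e-05). Adipogenesis was above chondrogenesis at 3 h (-2.25 for chondrogenesis less adipogenesis) and 12 h (-1.56), both called. Osteogenesis at 3 h was below adipogenesis (-1.16 ± 0.36, adjusted p = 0.0258) and above chondrogenesis (1.10 ± 0.36, adjusted p = 0.0334), but neither was called with a pseudocount of 0.1. The first was also lost with edgeR (-1.22) and without osteogenic replicate 2 or adipogenic replicate 1 or 3, and the second with no filter on low values and without replicate 1 or 3 of either lineage. The adipogenic step from 3 to 12 h (-1.01 ± 0.36, adjusted p = 0.0330) was not called with edgeR (-1.01), a pseudocount of 0.1 (-1.15) or no filter, nor without 12 h replicate 1 (-0.60) or 3 h replicate 1 (-0.90) or 3.

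Fstl1 encodes follistatin-like 1, a secreted glycoprotein that binds family ligands. At 0 h, Fstl1 was at 13.8, 21.5 and 14.4 CPM. Osteogenic Fstl1 values were 38.5, 31.8 and 30.8 CPM at 3 h, 20.3, 17.2 and 20.9 at 12 h, then 19.4, 20.6 and 19.1 at 72 h. Adipogenic Fstl1 values were 28.2, 31.2 and 23.9 CPM at 3 h, 24.9, 27.8 and 19.98 at 12 h, then 26.0, 21.6 and 11.6 at 72 h. Samples of both lineages were above 0 h at 3 h. Chondrogenic Fstl1 values were 51.5, 40.4 and 56.4 CPM at 3 h, 39.1, 34.0 and 29.0 at 12 h, then 20.00, 17.0 and 17.8 at 72 h. Fstl1 rose at 3 h of chondrogenesis (log2 fold change 1.54 ± 0.21, adjusted p = 4.73e-07), where all 3 samples were above all others of the gene. The rises at 3 h of osteogenesis (1.01 ± 0.21, adjusted p = 2.26e-04) and 12 h of chondrogenesis (1.01 ± 0.21, adjusted p = 2.42e-04) sat at the threshold. With median-ratio scaling they were 0.78 and 0.79, with edgeR 0.78 and 0.77, and neither was then called. Leaving out 0 h replicate 1 or 3, osteogenic replicate 1 or chondrogenic replicate 1 ended the same calls. No difference between lineages or between consecutive times was called. Fstl5, the fourth antagonist, never exceeded 1 read.

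Tgfbi encodes a matrix protein that binds integrins and is induced by TGF-beta in many cells. At 0 h, Tgfbi was at 14.5, 13.7 and 16.2 CPM. Osteogenic Tgfbi values were 15.2, 22.3 and 26.4 CPM at 3 h, 11.9, 17.5 and 15.2 at 12 h, then 17.3, 17.6 and 16.3 at 72 h. They stayed within a factor of 2 of the 0 h mean of 14.8 CPM. Adipogenic Tgfbi values were 27.2, 22.8 and 27.4 CPM at 3 h, 19.2, 8.10 and 8.14 at 12 h, then 3.38, 5.14 and 0.634 at 72 h. Chondrogenic Tgfbi values were 64.6, 67.4 and 48.7 CPM at 3 h, 154, 187 and 156 at 12 h, then 1616, 1559 and 1485 at 72 h. Every later chondrogenic time was wholly above the one before it, and all 72 h adipogenic samples were below 0 h, with replicate 3 the lowest. Tgfbi rose at 3 h (log2 fold change 1.94 ± 0.30, adjusted p = 3.99e-06), 12 h (3.40 ± 0.30, adjusted p = 2.22e-10) and 72 h (6.62 ± 0.30, adjusted p = 2.79e-17) of chondrogenesis. The steps were 1.45 from 3 to 12 h and 3.23 from 12 to 72 h, both called. Tgfbi fell at 72 h of adipogenesis (-2.16 ± 0.30, adjusted p = 1.02e-06, or -1.60 without replicate 3). The adipogenic step from 12 to 72 h was -1.75, or -1.20 without replicate 3, and that from 3 to 12 h (-1.17 ± 0.30, adjusted p = 0.00338) was not called without 12 h replicate 2 (-0.98) or 3 (-0.98). Against adipogenesis, chondrogenesis was higher by 1.18, 3.80 and 8.78 at 3, 12 and 72 h, the last 8.23 without adipogenic replicate 3, and all were called. Osteogenesis was below chondrogenesis by -1.48, -3.40 and -6.43, also called. At 72 h osteogenesis was above adipogenesis (2.36 ± 0.30, adjusted p = 3.44e-07, or 1.80 without replicate 3).

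None of the members that act inside the cell or store the ligand reached the filter. Skil, a SMAD corepressor, had 1 read (0.138 to 0.152 CPM) in 0 h replicates 2 and 3, in replicate 3 of 3 h of osteogenesis and in replicate 1 of 12 h of osteogenesis. It had 2 reads in replicate 1 of 3 h of adipogenesis and replicate 2 of 12 h of chondrogenesis, and was listed at 0 in the other 24 samples. Smad9, a BMP SMAD, reached 6 reads in 1 sample each of 12 h of adipogenesis and of 3 h and 72 h of chondrogenesis, and Smurf2, a ubiquitin ligase for SMADs and receptors, never exceeded 3 reads. Ltbp2 and Ltbp4, which hold latent TGF-beta in the matrix, had at most 1 and 3 reads in a sample. As Actb and Vim were also near 0, these values do not show how much of these genes the cells made.

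Lineages were next compared at the same time. At 3 h, 6 members were called between osteogenesis and adipogenesis, Gdf6 higher and Bambi, Chrdl2, Gdf15, Inhbb and Tgfbr3 lower in osteogenesis, where 7.66% of all genes were called. Between osteogenesis and chondrogenesis 5 were called, Chrdl2 and Inhbe higher and Gdf6, Nog and Tgfbi lower in osteogenesis (7.31% of all genes). Between chondrogenesis and adipogenesis 8 were called, Gdf6, Nog and Tgfbi higher and Bambi, Chrdl2, Gdf15, Inhbb and Tgfbr3 lower in chondrogenesis (9.35% of all genes). At 12 h, Tgfb1 was higher and Inhbb and Tgfbr3 were lower in osteogenesis than in adipogenesis, 3 members against 13.2% of all genes. Inhbb and Tgfbr3 were higher and Bambi, Gdf6 and Tgfbi lower in osteogenesis than in chondrogenesis, 5 members against 16.0% of all genes. Gdf6, Nog, Tgfb1 and Tgfbi were higher and Chrdl2, Inhbb and Tgfbr3 lower in chondrogenesis than in adipogenesis, 7 members against 13.6% of all genes. At 72 h, 5 members were called between osteogenesis and adipogenesis, Bmp3, Tgfb1 and Tgfbi higher and Gdf15 and Nog lower in osteogenesis (13.7% of all genes). Osteogenesis and chondrogenesis at 72 h differed in 10 members, Bmp3, Gdf15, Inhbb and Tgfbr3 higher and Bambi, Gdf6, Inhbe, Nog, Tgfb1 and Tgfbi lower in osteogenesis (19.6% of all genes). Chondrogenesis and adipogenesis differed in 7, Bambi, Gdf6, Inhbe, Tgfb1 and Tgfbi higher and Gdf15 and Tgfbr3 lower in chondrogenesis (25.5% of all genes). Over these 9 comparisons, 11 of the 13 tested members were called at least once, Acvr2b and Fstl1 being the exceptions, and 51.6% of all genes tested were called at least once. The share of calls that were higher moved by over 10 percentage points in 4 of the 9, most at 72 h between osteogenesis and adipogenesis, from 67.1% to 41.8% with median-ratio scaling and 44.4% with edgeR.

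**Figure D4:**
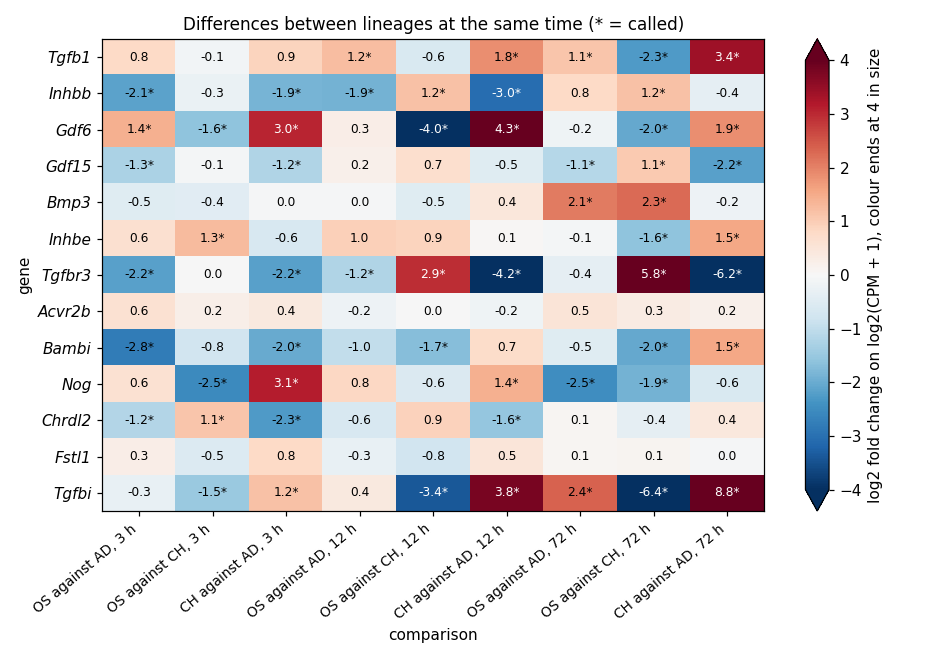
Heat map of log2 fold changes on log2(CPM + 1) between lineages at the same time, with the 13 tested members as rows and 9 comparisons as columns, where red is higher in the lineage named first, blue is lower and a star marks a called difference. At 72 h the chondrogenic against adipogenic column holds Tgfbi at 8.78 and Tgfbr3 at -6.18, and the Acvr2b and Fstl1 rows hold no star.

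Each time was also compared with the one before it. From 3 to 12 h of osteogenesis 2 members were called, Tgfbr3 higher and Gdf6 lower (7.82% of all genes), and from 12 to 72 h 5 were called, Bmp3, Gdf15, Inhbb and Tgfbr3 higher and Chrdl2 lower (23.2% of all genes). From 3 to 12 h of adipogenesis 5 were called, all lower, Bambi, Bmp3, Chrdl2, Tgfb1 and Tgfbi (12.9% of all genes). That of Tgfb1 (-1.04) was not called without 12 h replicate 2 (-0.89) or 3 (-0.997). From 12 to 72 h of adipogenesis 5 were called, Gdf15, Nog and Tgfbr3 higher and Chrdl2 and Tgfbi lower (16.0% of all genes). In chondrogenesis 4 were called from 3 to 12 h, Tgfbi higher and Inhbb, Nog and Tgfbr3 lower (7.68% of all genes). From 12 to 72 h of chondrogenesis 5 were called, Bambi, Inhbb, Inhbe and Tgfbi higher and Gdf6 lower (13.2% of all genes). The share of calls that were higher moved by over 10 percentage points in 5 of these 6 comparisons, most from 12 to 72 h of adipogenesis, from 32.4% to 63.0% with median-ratio scaling and 59.8% with edgeR. Acvr2b was at 0.92 from 3 to 12 h of adipogenesis and was called without 12 h replicate 1 (1.19) or 3 h replicate 3 (1.21). It was also called with a pseudocount of 0.1 and with edgeR.

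Genes downstream of the pathway were read from lists of known targets. These lists and that of further components were chosen with earlier results of these data known. Some of their genes, such as Snai2, Klf10, Id2 and Id3, are among the changed transcription factors that the study reported. Their counts beside the shares of all genes are therefore descriptions. Of 28 targets of SMAD2 and SMAD3, 13 were listed and 9 tested, and 8 were called against 0 h at least once, as were 53.2% of all genes tested. In chondrogenesis, 4, 6 and 5 of the 9 were called higher at the successive times, while 13.1, 9.44 and 11.6% of all genes were called higher. Of the 9, 0, 1 and 0 were called lower, beside 4.88, 5.0 and 6.37% of all genes. The list's median log2 fold changes were 0.85, 1.31 and 1.07, beside 0.21, 0.11 and 0.01 for all genes tested. Postn, which encodes the matrix protein periostin, rose by 1.79 at 12 h and 5.47 at 72 h of chondrogenesis on the log2 scale, and by 1.37 at 72 h of osteogenesis. Ctgf, a matrix-associated growth factor, was called higher at 3 h (1.95), 12 h (1.16) and 72 h (1.07) of chondrogenesis and at 3 h of osteogenesis (1.12), and lower at each time of adipogenesis (-1.54, -2.32 and -1.003, the last -0.56 and not called without replicate 3). With median-ratio scaling and with edgeR, Ctgf was no longer called at 3 h of osteogenesis (0.89 and 0.91), 12 h of chondrogenesis (0.94 and 0.93) or 72 h of adipogenesis (-0.85 and -0.91). Without 0 h replicate 2 its calls at 3 h of osteogenesis and at 12 and 72 h of chondrogenesis were lost, the last also without chondrogenic replicate 3, and that at 72 h of adipogenesis was lost without 0 h replicate 1 or 3. Bhlhe40, a transcriptional repressor, was higher at each chondrogenic time (1.29, 1.31 and 1.39) and lower at 12 and 72 h of adipogenesis (-3.82 and -1.72), and its 3 h chondrogenic call was lost with median-ratio scaling (0.95) and edgeR (0.93). Tagln, an actin-binding protein of contractile cells, was higher at 3 h of all lineages (2.17 for osteogenesis, 1.64 for adipogenesis and 2.28 for chondrogenesis) and at 12 h of chondrogenesis (2.34), and lower at 72 h of adipogenesis (-1.11, or -0.96 and not called with median-ratio scaling, and -0.99 and not called without replicate 2). At 72 h of osteogenesis Tagln was at -0.94 and not called. It was called lower there with a pseudocount of 0.1 (-1.04), median-ratio scaling (-1.08) and edgeR (-1.12). Lox, the collagen cross-linking enzyme, was called higher at 12 h of chondrogenesis (1.47), and with median-ratio scaling (-1.12) and edgeR (-1.03) it was also called lower at 12 h of adipogenesis. Klf10 and Snai2, which encode transcription factors, were called higher at 72 h of all 3 lineages, Snai2 by 4.43, 5.07 and 3.39 and Klf10 by 2.03, 2.04 and 2.52 in osteogenesis, adipogenesis and chondrogenesis. Klf10 was also called higher at 12 h of osteogenesis (1.97) and chondrogenesis (1.45), and Snai2 at 3 h of adipogenesis (1.36) and chondrogenesis (1.13, or 0.82 and 0.87 and not called with median-ratio scaling and edgeR) and 12 h of adipogenesis (2.64). Snai2 was called lower at 12 h of chondrogenesis with median-ratio scaling (-1.02) and edgeR (-1.23), though not on CPM (-0.82), and Klf10, at -0.89 at 3 h of adipogenesis, was called lower there with both and with a pseudocount of 0.1 (-1.11). Jun, a subunit of AP-1, was called lower at 3 h of osteogenesis (-1.51), 12 h of adipogenesis (-1.69) and 12 h of chondrogenesis (-2.28). In adipogenesis 2, 1 and 2 of the 9 were called higher at the successive times, beside 12.4, 8.14 and 6.19% of all genes, and 1, 3 and 3 lower, beside 6.42, 5.55 and 9.08%. The osteogenic numbers were 2, 1 and 3 higher, beside 11.7, 14.7 and 7.20% of all genes, and 1, 0 and 0 lower, beside 6.67, 7.15 and 5.29%. Median log2 fold changes were 0.55, 0.20 and 0.29 in osteogenesis, beside 0.09, 0.09 and 0.08 for all genes, and 0.02, -0.52 and 0.15 in adipogenesis, beside 0.15, 0.15 and -0.05. Signs of 3 of these medians were not stable, as that at 12 h of osteogenesis was -0.09 with median-ratio scaling and -0.17 with edgeR, that at 3 h of adipogenesis was -0.22 and -0.26, and that at 72 h of adipogenesis was -0.07 without replicate 3. In adipogenesis 3, 4 and 1 of the 9 were called lower with median-ratio scaling and 3, 4 and 2 with edgeR, while 2, 1 and 2 were called higher in both. Bhlhe40 (-1.10 and -1.13) and Klf10 (-1.09 and -1.38) were the ones added at 3 h. The adipogenic shares of all genes called lower were 9.08, 7.79 and 8.07% with median-ratio scaling and 12.2, 9.42 and 10.1% with edgeR. At 3 and 12 h both exceeded the CPM shares. In osteogenesis 1, 1 and 3 were called higher in both settings, and 1, 0 and 1 lower with median-ratio scaling and 1, 1 and 1 with edgeR. The osteogenic shares called lower at 3 and 72 h were 9.63 and 6.62% with median-ratio scaling and 12.6 and 8.18% with edgeR. Those at 12 h, and shares called higher, are given with the lists below. With both median-ratio scaling and edgeR, 2, 5 and 5 of the 9 were called higher and 0, 2 and 0 lower in chondrogenesis. Beside these, 8.5, 6.26 and 11.7% of all genes were called higher with median-ratio scaling and 10.3, 7.59 and 12.6% with edgeR. The chondrogenic shares called lower were 7.45, 7.31 and 6.88%, and 10.1, 9.70 and 8.98%. All these comparisons share the 0 h samples.

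Of 21 targets of SMAD1 and SMAD5, 12 were listed and 7 tested, and 6 were called against 0 h at least once (53.2% of all genes). Of these 7, osteogenesis had 3 called lower at 3 h, adipogenesis 2 and chondrogenesis 4, beside 6.67, 6.42 and 4.88% of all genes. By 12 h these were 4, 3 and 4, beside 7.15, 5.55 and 5.0%, and by 72 h they were 1, 3 and 2, beside 5.29, 9.08 and 6.37%. With median-ratio scaling and with edgeR 4, 3 and 4 were called lower at both times, as Id3 at 3 h of osteogenesis and Tnfrsf11b at 3 h of adipogenesis were added. The shares of all genes called lower were then larger, 9.63, 9.08 and 7.45% at 3 h and 11, 7.79 and 7.31% at 12 h with median-ratio scaling. The edgeR shares came to 12.6, 12.2 and 10.1% at 3 h and 16.7, 9.42 and 9.70% at 12 h. Those called higher numbered 1, 1 and 2 at the successive times of osteogenesis, 1, 1 and 0 in adipogenesis, and 0 throughout chondrogenesis, and the shares of all genes called higher ran from 6.19 to 14.7% over these 9 comparisons. The list's median at 12 h was -1.39 in osteogenesis, -0.62 in adipogenesis and -1.33 in chondrogenesis, beside 0.09, 0.15 and 0.11 for all genes tested. At 3 h the medians were -0.94, -0.33 and -1.10, beside 0.09, 0.15 and 0.21, and at 72 h they were -0.03, -0.70 and 0.05, beside 0.08, -0.05 and 0.01 for all genes tested. The chondrogenic median at 72 h was -0.03 with edgeR. Id2 and Id3 encode inhibitors of bHLH factors and are classic BMP targets. Id2 was called lower at 3 h (-2.11, -1.03 and -2.78) and 12 h (-2.62, -1.56 and -3.30) of all 3 lineages, and at 72 h of adipogenesis (-1.34). Id3 was at -0.94 (not called), -3.18 and -3.02 at 3 h and -1.39, -1.78 and -1.33 at 12 h, and was lower at 72 h of adipogenesis (-1.36). Tnfrsf11b, which encodes osteoprotegerin, was called lower at 72 h of osteogenesis (-2.51), adipogenesis (-2.19) and chondrogenesis (-3.63), at 12 h of each (-3.75, -1.81 and -3.28), and at 3 h of osteogenesis (-1.10) and chondrogenesis (-1.52). Atoh8, a bHLH factor, was called lower at 3 and 12 h of osteogenesis (-1.94 and -2.96) and of chondrogenesis (-1.10 and -1.64). Dlx3, a homeobox factor, went the other way, higher at each time of osteogenesis (1.73, 3.13 and 2.48) and at 3 and 12 h of adipogenesis (2.93 and 1.29, the latter 0.62 and not called without replicate 1), and lower at 72 h of chondrogenesis (-1.80). Msx2, another homeobox factor, was called higher at 72 h of osteogenesis (1.14, or 0.95 and not called without 0 h replicate 1). Likewise 1 library decided the calls of Id2 at 3 h of adipogenesis (-0.98 without 0 h replicate 2), Tnfrsf11b at 3 h of osteogenesis (-0.95 without replicate 3) and Atoh8 at 3 h of chondrogenesis (-0.95 without replicate 3).

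Of 54 further components, 28 were listed and 10 tested, and 7 were called against 0 h at least once (53.2% of all genes). Emilin1, which restrains the processing of TGF-beta precursors, was called lower at all 3 times of osteogenesis (-1.91, -1.51 and -1.34) and adipogenesis (-1.51, -1.31 and -1.32), and in chondrogenesis it was at -0.71, -0.13 and 0.60, with no call on CPM, but was called lower at 3 h with median-ratio scaling (-1.04) and edgeR (-1.10). Fbn2, a fibrillin of the matrix that holds latent ligands, was higher at 12 h (1.58) and 72 h (1.34) of chondrogenesis and 3 h of osteogenesis (1.09), and lower at 72 h of adipogenesis (-1.86). Lefty1, an antagonist of Nodal, was called higher at 3 h of chondrogenesis (1.19), and Wfikkn2, which binds GDF ligands and was listed at 0 in all 0 h samples, reached at least 2.45-fold of a 3-read floor per library at 12 h of chondrogenesis, a rise whose call was lost without replicate 2. Wfikkn2 was at 0.85 at 12 h of osteogenesis and 0.69 at 72 h of chondrogenesis, neither called. With edgeR both were called higher, and with a pseudocount of 0.1 the osteogenic one was. Itgb1, an integrin subunit, was called lower at 72 h of adipogenesis (-1.03, or -0.94 and not called without replicate 3), and not with median-ratio scaling (-0.84) or edgeR (-0.93). Strap and Stub1, which act on receptors and SMADs, were higher at 3 h (1.01 and 1.002) and 12 h (1.17 and 1.06) of osteogenesis. Stub1 was also called higher at 3 h of chondrogenesis (1.06), and it was just under the threshold at 12 h of chondrogenesis (0.97) and at 3 and 12 h of adipogenesis (0.96 and 0.90). No call of Strap, of Stub1 or of Fbn2 at 3 h of osteogenesis held with median-ratio scaling (0.77 and 0.83 for Strap, 0.72 to 0.76 for Stub1, 0.88 for Fbn2) or edgeR, and 1 library fewer could end those at 3 h of osteogenesis. Strap was at 0.80 and 0.66 at these times of chondrogenesis and 0.69 and 0.41 of adipogenesis, with no call. Over the successive times, 3, 2 and 0 of the 10 components were called higher in osteogenesis (all genes, 11.7, 14.7 and 7.20%) and 1, 1 and 1 lower (6.67, 7.15 and 5.29%). In adipogenesis the numbers were 0, 0 and 0 higher (12.4, 8.14 and 6.19%) and 1, 1 and 3 lower (6.42, 5.55 and 9.08%). In chondrogenesis they were 2, 2 and 1 higher (13.1, 9.44 and 11.6%) and 0, 0 and 0 lower (4.88, 5.0 and 6.37%). With 10 genes, a count of 1 is near these shares. With median-ratio scaling the osteogenic numbers were 0, 0 and 0 higher and 1, 1 and 1 lower, the adipogenic ones 0, 0 and 0 higher and 1, 1 and 2 lower, and the chondrogenic ones 1, 2 and 1 higher and 1, 0 and 0 lower. Beside these, 8.64, 9.60 and 6.17% of all genes were called higher in osteogenesis and 9.08, 5.59 and 8.78% in adipogenesis with median-ratio scaling. At 72 h, 6.62, 8.07 and 6.88% were called lower in osteogenesis, adipogenesis and chondrogenesis. The chondrogenic shares called higher and the shares called lower at 3 and 12 h are given above. With edgeR the osteogenic numbers were 0, 1 and 0 higher and 1, 2 and 1 lower, the adipogenic ones 1, 0 and 1 higher and 1, 1 and 2 lower, and the chondrogenic ones 1, 3 and 2 higher and 1, 0 and 0 lower. The edgeR shares of all genes ran from 7.29 to 12.6% higher and from 8.18 to 16.7% lower. The list's medians were 0.47, 0.05 and -0.08 in osteogenesis, 0.32, 0.13 and -0.17 in adipogenesis and 0.44, 0.66 and 0.43 in chondrogenesis, beside the medians of all genes given above, and that at 12 h of osteogenesis turned to -0.03 with median-ratio scaling and -0.27 with edgeR. Without replicate 3 of 72 h of adipogenesis, the counts called lower at that time were 2 of 9 SMAD2 and SMAD3 targets, 3 of 7 SMAD1 and SMAD5 targets and 2 of 10 components. The share of all genes called lower was 9.08% with every sample and was not computed without that replicate.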

How the data were processed

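The 30 RNA samples of rat BMSCs fell into 10 groups of 3 by time and lineage, as labelled. The study describes mRNA libraries sequenced on a NovaSeq instrument, whereas the labels describe removal of ribosomal RNA and digestion of the second cDNA strand. The submitters' processing notes name Trimmomatic, HISAT2 and StringTie, and the build, annotation and use of strand in counting are not given in the sources used here. The authors deposited 1 value per gene row under the name FPKM, but within each sample 100.0% of these deposited values were whole multiples of 1 step (within 0.02 reads), so they are CPM, and the step gave the reads and totals of 3899609 to 9046719 (median 6579543). Limits of depth are therefore counting limits, and reads carry no molecular identifiers that would make them independent molecules.

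Values of the 729 names that occurred on more than 1 row were summed (0 of the 32 members were affected), and of 9999 names the 4363 that reached 1 CPM in 3 or more samples were tested. limma 3.58.1 in R 4.3.3 was fitted to log2(CPM + 1) in 1 model of 10 groups with a trend, no covariates and 24 contrasts. limma was planned for FPKM values and was kept for CPM. Calls used the thresholds of the study, an adjusted p (Benjamini-Hochberg over all genes tested) under 0.05 and a log2 fold change of 1 or more in size. Alternatives were a pseudocount of 0.1, no filter, median-ratio scaling, a replicate block, edgeR 4.0.16 (quasi-likelihood, TMM) on the recovered reads, and each sample left out in turn. Read ratios have exact binomial 95% intervals. Levels in every sample are given for all tested members and for Bmp2 and Skil where reads were found, and at most 8 called genes are named per target list. The members and lists were chosen with earlier results of these data known, and the genes used by every cell and the display of promoter windows were chosen after seeing the data. Both tests were run on simulated data in which equal numbers of genes rose and fell at 72 h of chondrogenesis. Those data hold no shift in the share of listed reads, so they do not bear on the choice of scaling. Tgfb2, Tgfb3, Bmp4, Inhba, Grem1, Fst, Smad6 and Smad7 were not among the 9999 gene names, so they were not analysed here. Counts of members by role cover only the names listed. Python 3.11.15 with pandas 2.3.3 and matplotlib 3.10.9 made the tables and figures.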

Additional observations from a re-analysis of the deposited data

Results flagged for a closer look

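Members were set apart here where 2 lineages moved in opposite directions from the shared 0 h samples at the same time, both changes being called, and the difference between the lineages itself passed the test. There were 8 such differences, given as log2 fold changes of the first lineage less the second from limma. Tgfbr3, the TGF-beta co-receptor, gave 3 of them, -4.15 between chondrogenesis and adipogenesis at 12 h, -6.18 between these lineages at 72 h, and 5.83 between osteogenesis and chondrogenesis at 72 h. Tgfbi differed by 8.78 and Tgfb1 by 3.38 between chondrogenesis and adipogenesis at 72 h. Nog differed by 3.15 between chondrogenesis and adipogenesis at 3 h. Bmp3 differed by 2.07 between osteogenesis and adipogenesis and by 2.28 between osteogenesis and chondrogenesis at 72 h, but its rise against 0 h at 72 h of osteogenesis was not called with a pseudocount of 0.1, median-ratio scaling or edgeR. Without replicate 3 of 72 h of adipogenesis, the Tgfbi, Tgfb1 and Tgfbr3 differences from that group were 8.23, 3.22 and -6.19, and that of Bmp3 was 1.88, but the fall of Bmp3 against 0 h in that group was then -0.84 and not called.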

How the results depend on the processing

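Counts of called members stayed within 1.5 times under a pseudocount of 0.1, no filter, median-ratio scaling and edgeR, with these exceptions. At 12 h of adipogenesis against 0 h, 3 (13.7% of all genes) became 5 with median-ratio scaling (13.4%) and 5 with edgeR (16.7%). Osteogenesis against adipogenesis at 12 h went from 3 (13.2% of all genes) to 5 with a pseudocount of 0.1 (18.4%) and to 5 with edgeR (17.8%). Osteogenesis against chondrogenesis at 3 h went from 5 (7.31% of all genes) to 3 with a pseudocount of 0.1 (8.66%). With 1 sample left out, these counts ranged from 3 to 5, from 3 to 6 and from 4 to 5, those of 12 h of osteogenesis against 0 h from 3 to 6, and those of 12 against 3 h of adipogenesis from 3 to 5. Of the 137 called changes, 8 were lost with each of a pseudocount of 0.1, median-ratio scaling and edgeR, 3 with no filter, and 42 of 822 when a sample was left out, and none reversed in these settings. For the lists of targets and components, examined in this way after seeing the data, the changes called against 0 h were 35, 32 and 18 for SMAD2 and SMAD3 targets, SMAD1 and SMAD5 targets and components, 34, 34 and 12 with median-ratio scaling, 36, 34 and 18 with edgeR, and 33 to 36, 31 to 33 and 15 to 20 with 1 sample left out. No pairing of samples by replicate number was detected: in 0 of 45 pairs of groups did all 3 same-numbered pairs correlate over 0.1 (r from -0.23 to 0.16). With 3 samples in a group, a weak pairing could be missed. The replicate block ended 0 of the 137 calls and left, for example, 9 members called at 72 h of chondrogenesis. Depth limits members near 3 reads, and a member listed near 0 cannot be read as absent.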
